A study of Mus musculus with 59 samples.

Results

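The liver mRNA libraries of this mouse study compare a pull-down fraction with its input, in 12 of the 59 libraries, namely those titled as liver mRNA pull-down or liver mRNA input. They form 4 groups: pull-down on a high-fat diet, pull-down on a low-fat diet, input on a high-fat diet and input on a low-fat diet, with 3 libraries each. All 4 groups came from male mice of 12 weeks, kept for 2 weeks on their diet, of an FVB.129P2 strain with 3 changes, written Cyp3a13tm1Ahs, Del(5Cyp3a57-Cyp3a59)1Ahs and, for the transgene, Tg(APOE-CYP3A4)A1Ahs. By this strain name the mice of every group, input included, carry the Cyp3a13 allele, the deletion of neighbouring Cyp3a genes and a human CYP3A4 transgene under an APOE promoter, which is active mainly in hepatocytes. The labels do not tie libraries to animals or one fraction to the other, and do not say which compound and labelling time were used, and p-values below measure the spread between libraries, which may be technical.

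The series is titled as iTag labelling. In that method a uridine analogue is released from a prodrug by CYP3A4, is built into RNA that the cell makes from then on, and serves as the handle by which labelled RNA is pulled out of the input. Messenger RNAs differ widely in how long they last: those of immediate-early genes, transcription factors and feedback inhibitors are known to be replaced quickly, whereas those of albumin, other plasma proteins and central metabolic enzymes are known to last long in hepatocytes. No half-life was measured here, and the classes used below were assigned by name from that general knowledge. The lists and members were chosen with earlier results of these data known, so their counts describe and do not test the classes.

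The libraries held between 3389320 and 4426392 counts in the pull-down and between 3033702 and 4942158 counts in the input. Low-fat input library 1 stood apart: against the other low-fat input libraries its chi-square per degree of freedom was 58.8 and 62.5, while pairs within the pull-down groups had 3.23 to 8.62. High-fat input libraries 1 and 3 (1.18) and low-fat input libraries 2 and 3 (1.13) differed by little more than counting noise. Gene and list results with such pairs summed, and results without low-fat input library 1, were computed. Hepatocyte markers dominated both fractions, with summed levels of 61042 to 84228 CPM in the pull-down and 86283 to 140710 CPM in the input (CPM here is always TMM-scaled). Cyp3a13, the gene of the targeted allele, was counted at 57.9 to 140 CPM in the pull-down and 7.14 to 160 CPM in the input, the lowest in low-fat input library 1. The genes that name the ends of the deletion were not at 0: Cyp3a57 had 170 counts over the 6 pull-down libraries and 165 over the 6 input libraries, and Cyp3a59 had 552 counts in the pull-down and 252 in the input. They belong to a family of similar genes, among which counting may have split reads, and the deletion was not checked further. The labels do not say which part of Cyp3a13 the allele lacks, and the human transgene is outside the counted mouse annotation.

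Of 10865 genes tested, 8022 (73.8%) differed between pull-down and input with diet in the model: 4097 (37.7%) were higher and 3925 (36.1%) were lower in the pull-down (edgeR quasi-likelihood test, Benjamini-Hochberg adjusted p under 0.05, used for every call below). The median log2 change was 0.02, the 25th and 75th percentiles were -0.85 and 0.85, and 2240 of the higher and 2261 of the lower genes changed by at least 2-fold. Large falls were more frequent than large rises: 449 genes fell by 4-fold or more and 102 rose by as much. In 2497 genes (23.0%) all 6 pull-down libraries lay above all 6 input libraries, and in 2239 (20.6%) all lay below. The counts of each list below are to be read beside these shares over all genes, with 37.7% called higher and 36.1% lower. With library totals alone as the scale, the median over genes became 0.27 and the calls 4799 higher and 3151 lower, so every direction below is relative to the typical gene.

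Among the genes of at least median level with the largest rises were Cpeb2, which controls translation of stored mRNAs (log2 change 2.40 ± 0.14, SE, adjusted p = 2.25e-08), Ocln, the tight-junction protein occludin (2.28 ± 0.13, adjusted p = 2.25e-08), Tat and Cited2. Sycp1, a meiotic chromosome protein, had 36.0 to 54.0 CPM in the pull-down and 0.420 to 9.08 CPM in the input, a change of 2.77 ± 0.28 (adjusted p = 2.12e-06). The largest falls at that level outside the small nucleolar RNAs included Mettl26 (-2.87 ± 0.24, adjusted p = 3.77e-07) and the acetyltransferase-family gene Nat8f1 (-2.85 ± 0.21, adjusted p = 1.61e-07).

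Short-lived regulators rose in most cases. Of 72 names, 71 were tested: 63 were higher, against 37.7% of all genes, 3 lower and 5 not called. The median log2 change was 1.29 against 0.02 for all genes. In 40 of them the 6 pull-down libraries lay above all input libraries, against 23.0% of all genes. Of these names 18 are also counted among transcription factors, and of the other 53 tested 50 were higher and 1 lower. The list held hormone-controlled liver enzymes as well as classical early genes.

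Cited2, a coactivator-binding regulator induced by stress and fasting signals, lies at chr10:17723228-17725674 (GRCm38.p6). Its level was between 86.7 and 119 CPM in the pull-down, with a median of 103 CPM, and between 17.3 and 26.4 CPM in the input, with a median of 23.7 CPM. No pull-down library overlapped the input, and the change was 2.21 ± 0.12 on the log2 scale, a fold of 4.63 (adjusted p = 1.64e-08).

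Tat, which starts tyrosine breakdown and is induced by glucocorticoids, had 15153 to 30253 CPM in the pull-down (median 19844 CPM) and 2967 to 5928 CPM in the input (median 3924 CPM). Its change of 2.31 ± 0.12 was the largest of the list (adjusted p = 1.59e-08). Cyp7a1, the enzyme that sets the rate of bile acid production, had 2527 to 5054 CPM in the pull-down and 602 to 1008 CPM in the input (2.20 ± 0.12, adjusted p = 1.71e-08). Pck1, the gluconeogenic enzyme, rose by less (1.32 ± 0.08, adjusted p = 2.25e-08). Both fractions of these liver enzymes were abundant, so counting error is small beside the spread between libraries.

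Tob1, an antiproliferative protein that recruits the deadenylase complex, had 345 to 627 CPM in the pull-down and 87.8 to 140 CPM in the input (2.17 ± 0.11, adjusted p = 1.54e-08). Myc, the growth-control factor, had 29.2 to 42.5 CPM in the pull-down, with a median of 37.0 CPM, and 6.24 to 14.8 CPM in the input, with a median of 7.97 CPM. All 6 pull-down libraries were above all input libraries for both genes, and Myc changed by 2.04 ± 0.17 (adjusted p = 2.99e-07).

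**Figure D1:**
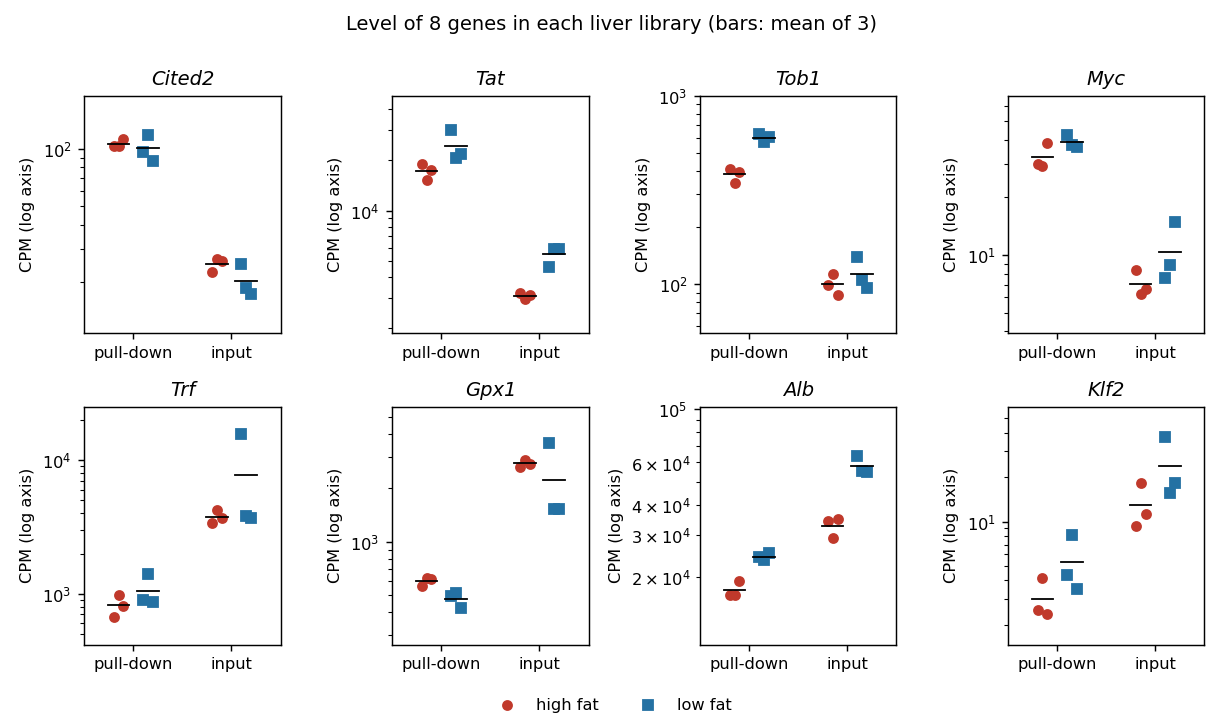
Levels of 8 genes in each library, in TMM-scaled CPM on a log axis, with pull-down at the left and input at the right of each panel. Circles are high-fat and squares low-fat libraries, and bars are means of 3. Cited2, Tat, Tob1 and Myc lie higher in every pull-down library than in any input library, and Trf, Gpx1, Alb and Klf2 lie lower.

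The 3 short-lived regulators that fell were Klf4, Klf2 and Ier5. Klf2, a flow-induced factor best known in endothelium, had 2.36 to 8.06 CPM in the pull-down and 9.34 to 37.4 CPM in the input (-2.11 ± 0.30, adjusted p = 4.06e-05). Klf4, also known from endothelium and epithelia, had 0 to 1.34 CPM in the pull-down, which is at most 5 counts in a library, and 2.84 to 6.72 CPM in the input (-3.08 ± 0.42, adjusted p = 2.87e-05). Ier5 is the weakest of the 3 (-0.56 ± 0.22, adjusted p = 0.0329), and its call was lost in 15 of 24 alternative settings.

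Markers of endothelial cells, stellate cells and macrophages were lower. All 14 tested endothelial markers fell (median -2.11), as did all 11 stellate cell and fibroblast markers (median -2.07) and all 12 macrophage and Kupffer cell markers (median -1.71), each against 36.1% of all genes called lower. Summed endothelial markers came to 71.7 to 117 CPM in the pull-down and 276 to 469 CPM in the input, stellate and fibroblast markers to 68.0 to 140 CPM in the pull-down and 425 to 710 CPM in the input, and macrophage markers to 46.4 to 84.4 CPM in the pull-down and 180 to 297 CPM in the input. Of 3 tested cholangiocyte markers 1 was higher, 1 lower and 1 not called, 2 of 3 lymphocyte markers fell, and 4 of 4 erythroid and platelet markers fell. The part that these cells have in the falls of single genes was not tested. These levels compare pull-down RNA with input RNA and do not count cells. The labels do not tie a pull-down library to an input library.

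Hepatocyte markers themselves fell for the most part: 12 of 16 were lower and 3 higher, with a median of -1.17. The mRNAs of secreted plasma proteins, nearly all of them made by hepatocytes, fell as a block, with 48 of 49 lower, 0 higher and a median of -1.63. In 43 of them the pull-down lay below all input libraries. Over all genes 36.1% were lower, and in 20.6% the pull-down lay below all input libraries. The smallest falls were moderate: Fgg, the fibrinogen gamma chain, fell by 0.46 on the log2 scale (adjusted p = 0.00445) and Hp, haptoglobin, fell by 0.51 (adjusted p = 0.000372). The call of Fgg was lost under total-count scaling.

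Trf, the iron carrier transferrin (chr9:103208876-103230286), had 667 to 1400 CPM in the pull-down, with a median of 880 CPM, and 3416 to 15711 CPM in the input, with a median of 3782 CPM. The highest input value is low-fat input library 1; the change was -2.54 ± 0.33 (adjusted p = 1.75e-05) with it and -2.04 without it. Gc, the vitamin D carrier, changed by -2.28 ± 0.12 (adjusted p = 1.58e-08). Apoc1, an apolipoprotein, changed by -2.44 ± 0.37 (adjusted p = 6.08e-05), or by -1.83 without low-fat input library 1.

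Alb, serum albumin, had 16774 to 25292 CPM in the pull-down and 29102 to 63944 CPM in the input, without overlap (-1.07 ± 0.09, adjusted p = 3.89e-07). Apoa1, the main protein of high-density lipoprotein, had 2357 to 3949 CPM in the pull-down and 5320 to 7928 CPM in the input, also without overlap (-0.84 ± 0.12, adjusted p = 4.36e-05). Both changes were smaller in size than the median of the list, -1.63.

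Central metabolism, the second class assigned as long-lived, had 40 of 50 genes lower, 3 higher and a median of -1.03. Gpx1, a glutathione peroxidase, had 422 to 626 CPM in the pull-down and 1517 to 3572 CPM in the input (-2.20 ± 0.19, adjusted p = 5.57e-07). Taldo1 of the pentose phosphate pathway (-2.16 ± 0.17, adjusted p = 1.84e-07) and Fbp1 of gluconeogenesis (-2.12 ± 0.17, adjusted p = 3.29e-07) followed. The 3 that rose were Idh3a of the citric acid cycle (0.80 ± 0.10, adjusted p = 8.34e-06), the glycolytic Aldoa (0.42 ± 0.14, adjusted p = 0.0159, lost in 2 of 25 alternatives) and the transaminase Got1 (0.42 ± 0.07, adjusted p = 0.000221). By diet, Aldoa changed by 0.83 on the high-fat and 0.0015 on the low-fat diet, a difference that was not called (adjusted p = 0.118).

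Urea cycle and amino acid breakdown genes gave 30 lower and 8 higher of 42, with a median of -0.85. Agxt, which detoxifies glyoxylate, and Otc, the second enzyme of the urea cycle, changed by -1.81 ± 0.17 and -1.79 ± 0.13 (adjusted p = 1.03e-06 and 1.65e-07). Sds, which breaks down serine, went the other way (1.32 ± 0.28, adjusted p = 0.000869), as did Cth of transsulfuration (0.87 ± 0.08, adjusted p = 1.04e-06) and Bhmt, which remethylates homocysteine (0.68 ± 0.07, adjusted p = 1.41e-06). By diet, Sds changed by 2.23 on the high-fat and 0.41 on the low-fat diet, a difference that was not called (adjusted p = 0.0913).

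Lists of housekeeping machinery also had negative medians, and over all genes 36.1% were lower and 37.7% higher. Lysosomal enzymes and proton pump subunits had 26 of 32 lower and 4 higher (median -0.99), led by the cathepsin Ctsb (-1.77 ± 0.13, adjusted p = 1.41e-07) and the lysosomal membrane protein Lamp1 (-1.74 ± 0.19, adjusted p = 3.14e-06). Actin and tubulin genes had 21 of 31 lower and 4 higher (median -0.64), translation factors 22 of 35 lower and 5 higher (median -0.57), the secretory translocon and its partners 28 of 45 lower and 5 higher (median -0.53), and chaperones 14 of 28 lower and 7 higher (median -0.36). The translocon subunit Sec61b changed by -2.10 ± 0.29 (adjusted p = 3.37e-05), while Sec24a, which selects cargo for coated vesicles, changed by 1.26 ± 0.13 (adjusted p = 1.71e-06).

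Subunits of one complex did not move together. Within the initiation factor eIF3, Eif3i and Eif3f changed by -1.62 ± 0.21 and -1.61 ± 0.18 (adjusted p = 1.92e-05 and 5.60e-06), whereas Eif3a, its large scaffold subunit, changed by 0.83 ± 0.08 (adjusted p = 1.18e-06). Of the prefoldin subunits, which hand unfolded actin and tubulin to the chaperonin, Pfdn1 and Pfdn5 changed by -1.59 ± 0.35 and -1.09 ± 0.31 (adjusted p = 0.00107 and 0.00714), and Pfdn2 by 0.83 ± 0.21 (adjusted p = 0.00337). Pfdn1 and Pfdn5 were -1.09 and -0.64 without low-fat input library 1, both still called.

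**Figure D2:**
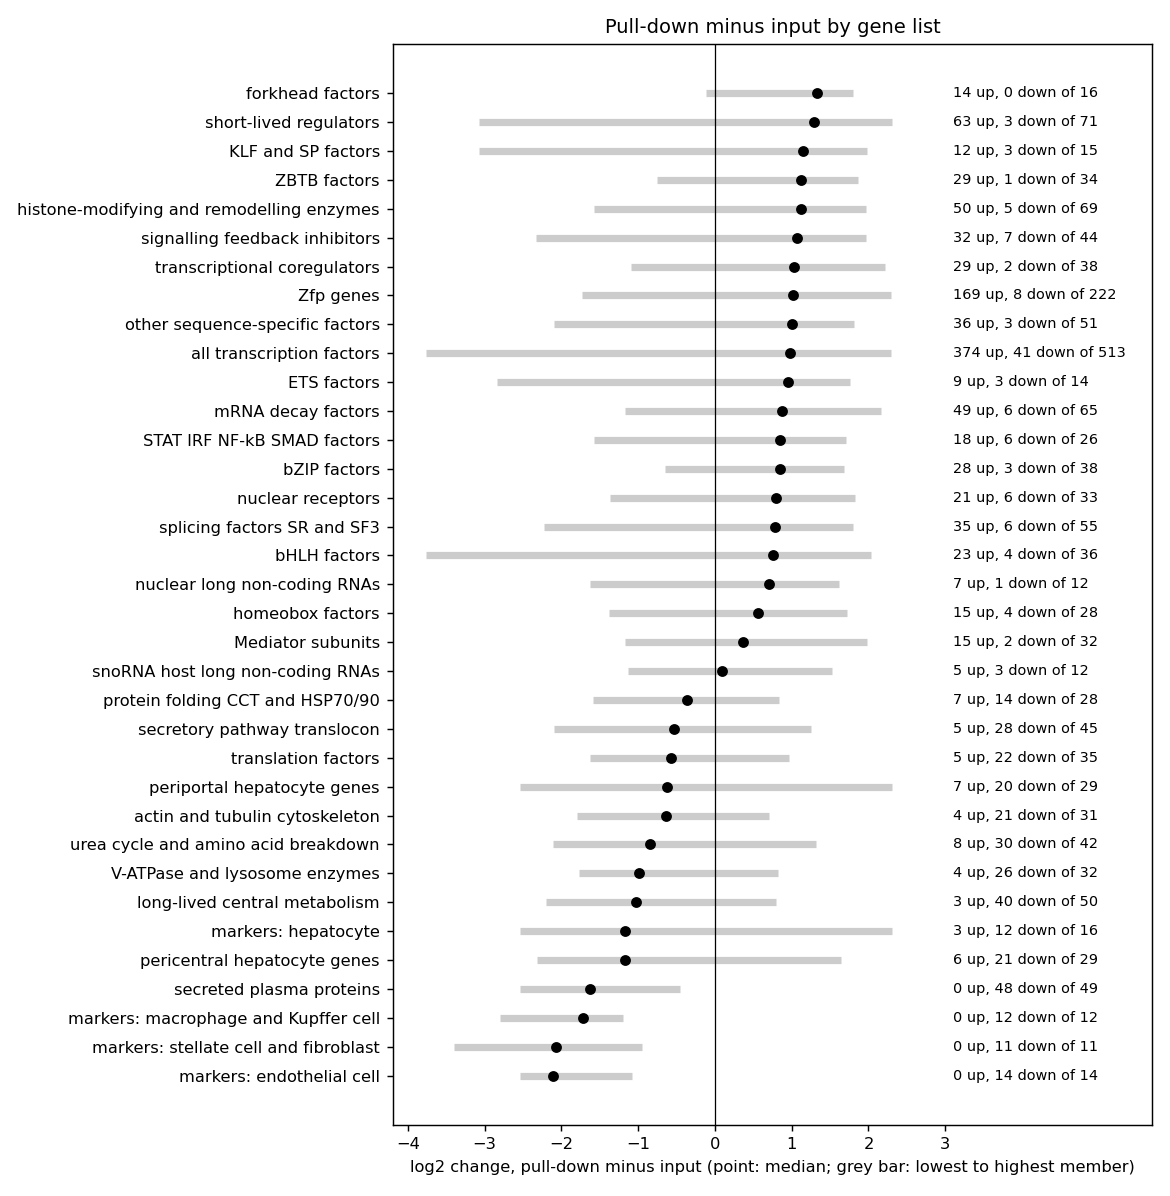
Median log2 change, pull-down minus input, of each gene list with 11 or more tested members, with grey bars reaching from the lowest to the highest member and the members called higher (up) or lower (down) at the right. Regulatory lists lie above 0, up to 1.33 for forkhead factors. Lists of metabolism, secretion and cell markers lie below 0, with hepatocyte markers at -1.17 and endothelial markers lowest at -2.11.

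Transcription factors rose across families. Of 513 tested, 374 (72.9%) were higher and 41 (7.99%) lower, with a median of 0.98; of the other 9629 protein-coding genes 3332 (34.6%) were higher and 3754 (39%) lower, with a median of -0.09. Over all protein-coding genes 36.5% were called higher and 37.4% lower. The zinc-finger genes named Zfp, most of which encode repressors with many fingers, gave 169 higher and 8 lower of 222, with a median of 1.01.

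By family, forkhead factors had the highest median (1.33), with 14 of 16 higher and 0 lower. KLF and SP factors had 12 of 15 higher and 3 lower (median 1.14), ZBTB factors 29 of 34 higher and 1 lower (1.13), ETS factors 9 of 14 higher and 3 lower (0.95), STAT, IRF, NF-kB and SMAD factors 18 of 26 higher and 6 lower (0.85), and bZIP factors 28 of 38 higher and 3 lower (0.85). Nuclear receptors had 21 of 33 higher and 6 lower (0.80), basic helix-loop-helix factors 23 of 36 higher and 4 lower (0.76) and homeobox factors 15 of 28 higher and 4 lower (0.56). A remaining group of sequence-specific factors had 36 of 51 higher and 3 lower (1.00). Every family kept a positive median under total-count, RLE and upper-quartile scaling.

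Several named factors are part of the hepatocyte's own network. Hnf4a, a nuclear receptor needed for hepatocyte identity, had 810 to 972 CPM in the pull-down, with a median of 868 CPM, and 393 to 663 CPM in the input, with a median of 467 CPM (0.80 ± 0.10, adjusted p = 1.01e-05). Cebpa, a bZIP factor of the liver metabolic programme, changed by 1.68 ± 0.14 (adjusted p = 3.29e-07), Foxa3 by 1.54 ± 0.10 (adjusted p = 5.31e-08), Hhex by 1.72 ± 0.12 (adjusted p = 7.25e-08) and Prox1, which acts with Hnf4a, by 1.53 ± 0.08 (adjusted p = 1.58e-08). In all 5 the fractions did not overlap.

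Other named factors have roles in metabolism or the clock. Klf15, which drives amino acid breakdown on fasting, had 304 to 704 CPM in the pull-down and 68.3 to 219 CPM in the input (1.98 ± 0.13, adjusted p = 6.92e-08). Nr1d1 and Rora, receptors that repress and activate clock genes, changed by 1.64 ± 0.29 and 1.49 ± 0.09 (adjusted p = 0.000211 and 2.25e-08). The clock-linked repressor Bhlhe40 changed by 1.77 ± 0.13 (adjusted p = 1.20e-07) and the inhibitor of helix-loop-helix dimers Id2 by 1.86 ± 0.15 (adjusted p = 2.24e-07).

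Widely expressed factors reached similar values. Sp3, which binds GC-rich promoters, changed by 1.94 ± 0.12 (adjusted p = 4.09e-08), Zfp410 by 1.93 ± 0.16 (adjusted p = 3.02e-07) and the receptor Nr6a1 by 1.82 ± 0.17 (adjusted p = 1.25e-06). Among the ZBTB family Zbtb1 and Zbtb11 changed by 1.86 ± 0.11 and 1.79 ± 0.12 (adjusted p = 2.74e-08 and 5.74e-08). Elf2 of the ETS family (1.76 ± 0.09, adjusted p = 1.58e-08), Irf2 (1.71 ± 0.11, adjusted p = 4.55e-08) and the NF-kB member Rel (1.68 ± 0.12, adjusted p = 8.52e-08) lay in the same range.

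Some factors fell. Among those of at least median level, Hes6, an inhibitor of Hes1, changed by -1.32 ± 0.12 (adjusted p = 9.66e-07), Ets1, a factor of endothelium and lymphocytes, by -1.29 ± 0.18 (adjusted p = 2.73e-05), and Mxd4 and Mxi1, which compete with Myc for its partner Max, by -0.85 ± 0.11 and -0.81 ± 0.12 (adjusted p = 1.62e-05 and 6.75e-05). Myc itself rose by 2.04, so these antagonists and Myc moved in opposite directions. The liver lipid regulator Creb3l3 (-0.64 ± 0.12, adjusted p = 0.000337) and the oxysterol receptor Nr1h3 (-0.62 ± 0.10, adjusted p = 0.000111) also fell.

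The largest falls among factors were at low levels. Picked after their values were seen, Tcf21, a factor of stellate cells and other mesenchyme, had 0 to 0.806 CPM in the pull-down and 3.24 to 9.66 CPM in the input (-3.76 ± 0.52, adjusted p = 3.02e-05), and Fli1, a factor of endothelium and blood cells, had 0.274 to 1.31 CPM in the pull-down and 3.24 to 7.37 CPM in the input (-2.83 ± 0.31, adjusted p = 4.38e-06). Sox18 of endothelium (-2.10 ± 0.36, adjusted p = 0.000181), Elk3 (-1.86 ± 0.33, adjusted p = 0.000228), Mef2c (-1.60 ± 0.33, adjusted p = 0.000744) and Irf8 of macrophages (-1.52 ± 0.23, adjusted p = 5.95e-05) were in the same direction. The markers of endothelial cells, stellate cells and macrophages moved with them by medians of -2.11, -2.07 and -1.71, and their part in these falls was not tested.

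Genes that act with transcription factors on chromatin rose in similar numbers. Histone-modifying and remodelling enzymes had 50 of 69 higher and 5 lower (median 1.12) and transcriptional coregulators 29 of 38 higher and 2 lower (median 1.03). Kdm6a, a histone demethylase, changed by 1.96 ± 0.14 (adjusted p = 9.53e-08), the acetyltransferase Kat6a by 1.78 ± 0.22 (adjusted p = 1.25e-05), the remodeller Chd9 by 1.73 ± 0.21 (adjusted p = 1.09e-05), the receptor corepressor Nrip1 by 1.96 ± 0.11 (adjusted p = 2.27e-08) and the acetyltransferase Ep300 by 1.67 ± 0.17 (adjusted p = 2.36e-06). Smarca4, the ATPase of a BAF remodelling complex, fell by 0.54 (SE 0.09, adjusted p = 0.000166), and the corepressor Sin3b fell by 0.61 (SE 0.19, adjusted p = 0.00946), a call lost under total-count scaling.

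The Mediator complex, which links factors to RNA polymerase II, was mixed: 15 of 32 subunits were higher, 2 lower and 15 not called, with a median of 0.36. Med13, part of its kinase module, had 276 to 316 CPM in the pull-down and 34.5 to 86.9 CPM in the input, without overlap (1.98 ± 0.16, adjusted p = 3.32e-07). Its kinase Cdk8 changed by 1.42 ± 0.24 (adjusted p = 0.000162) and Med17 by 1.53 ± 0.17 (adjusted p = 3.60e-06). Ccnc, the cyclin that activates Cdk8, changed by -0.89 ± 0.13 (adjusted p = 3.78e-05), opposite to its partner.

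Signalling feedback inhibitors, which are induced by the pathways they damp, had 32 of 44 higher and 7 lower, with a median of 1.07. Errfi1, which restrains the epidermal growth factor receptor, had 5553 to 7360 CPM in the pull-down and 1799 to 2428 CPM in the input (1.64 ± 0.08, adjusted p = 1.49e-08). Znrf3, which removes Wnt receptors, changed by 1.97 ± 0.20 (adjusted p = 1.70e-06) and Socs7 by 1.70 ± 0.12 (adjusted p = 8.52e-08). The largest fall was Trib2, at a mean of 0.910 ± 0.481 CPM in the pull-down and 4.74 ± 1.20 CPM in the input (SD, n = 6 each; -2.33 ± 0.38, adjusted p = 0.000119).

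Factors of mRNA decay had 49 of 65 higher and 6 lower (median 0.88). The ARE-binding protein Zfp36, which directs early-response mRNAs to decay, changed by 1.83 ± 0.07 (adjusted p = 4.11e-09), and the rhythmic deadenylase-family protein Noct by 1.85 ± 0.10 (adjusted p = 1.60e-08). Exosc5, a core subunit of the RNA exosome, changed by -1.17 ± 0.21 (adjusted p = 0.000299).

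Splicing factors had 35 of 55 higher and 6 lower (median 0.78). Among the largest rises, the kinases Clk1 and Clk4, which phosphorylate SR proteins, changed by 1.80 ± 0.11 and 1.54 ± 0.10 (adjusted p = 3.60e-08 and 4.09e-08), and the SR-related protein Srsf11 by 1.42 ± 0.07 (adjusted p = 1.49e-08). Core spliceosome proteins that fell included Snrpd2 at -2.22 ± 0.37 (adjusted p = 0.000151), Sf3b5 at -1.26 ± 0.29 (adjusted p = 0.00174) and Snrpb at -0.78 ± 0.15 (adjusted p = 0.000490).

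Hepatocyte genes of both lobular zones fell in most cases. Genes expressed around the central vein had 21 of 29 lower and 6 higher (median -1.17), and genes expressed around the portal vein 20 of 29 lower and 7 higher (median -0.63); the difference between zones was not tested. The pericentral Lect2, a secreted chemotactic protein (-2.25 ± 0.21, adjusted p = 8.90e-07) and Gstm1 (-1.86 ± 0.17, adjusted p = 9.30e-07) were lower. The pericentral members that rose included the receptors Ahr (1.61 ± 0.15, adjusted p = 9.80e-07) and Avpr1a (0.82 ± 0.11, adjusted p = 2.94e-05) and the factor Tbx3 (1.62 ± 0.12, adjusted p = 1.48e-07). On the periportal side, Igfals, which carries insulin-like growth factors in blood, changed by -2.19 ± 0.17 (adjusted p = 2.07e-07), and Tat and Pck1, also in the short-lived list, were higher.

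Longer genes lay higher in the pull-down. When the 10142 tested protein-coding genes were split into 5 equal groups by genomic span, the shortest (up to 8.66 kb) had a median log2 change of -0.51, with 23.3% higher and 50.3% lower. The next groups had medians of -0.15, -0.01 and 0.16, and the longest (from 68.7 kb) had 0.31, with 47.5% higher and 29.1% lower. Across genes, Spearman's rho between span and change was 0.19, given as a description since genes are not independent replicates. The span includes introns, and the length of the mature transcript was not analysed here.

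The relation with span was steepest among abundant genes. In the most abundant of 5 equal groups by level, medians were -1.01, -0.65, -0.34, 0.19 and 0.65 going up in span, and in the least abundant group -0.24, -0.16, -0.26, -0.24 and -0.49, where the longest genes were the lowest. By mean level alone, medians were -0.27, 0.04, 0.06, 0.16 and -0.18 going up, with a rho of 0.06. The share called higher was 22.4%, 34.4%, 40.4%, 46.2% and 39.3% going up in level, a range like that over span.

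The medians of transcription factors varied little with span. They were 0.92, 1.03, 0.93, 0.93 and 1.03 going up in span, against -0.57, -0.22, -0.08, 0.13 and 0.25 for other protein-coding genes. In the shortest group 64.9% of factors and 21.2% of other genes were higher, and in the longest 76.9% of factors and 45.9% of others. By level, the medians of factors lay between 0.81 and 1.17 and those of other genes between -0.36 and 0.13. Short-lived regulators, with a median span of 5.80 kb and 43 of 71 members in the shortest group, were likewise far above that group's median. The secreted plasma proteins had a median span of 15.2 kb, and 15 of 49 fell in the shortest group.

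**Figure D3:**
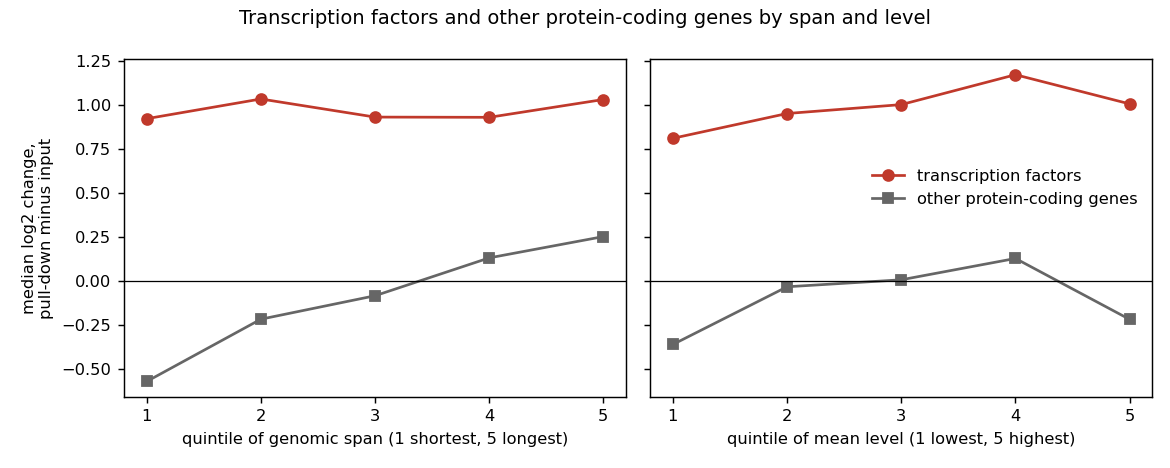
Median log2 change, pull-down minus input, of transcription factors (red circles) and of other protein-coding genes (grey squares) in 5 equal groups of genomic span (left) and of mean level (right). Transcription factors stay between 0.81 and 1.17 in every group, whereas other genes rise with span, with medians of -0.57 in the shortest and 0.25 in the longest group.

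Promoters were compared through the RefSeq promoter sequences of GRCm38.p6, from 250 bases before to 50 bases after each gene's start, which matched 8236 of the 10142 genes (81.2%). The count of CG dinucleotides in these 300 bases, chosen after values were seen, ran with the change: in genes with 0 to 11 the median log2 change was -0.53 (27.4% higher, 50.5% lower), and in genes with 32 to 65 it was 0.31 (47.9% higher, 27.4% lower), with medians of -0.16, -0.02 and 0.18 between. Without transcription factors the first and last groups had medians of -0.63 and 0.27. The promoters below are examples picked to show the contrast, with Cited2 and Hhex among genes that rose and Apoa1 and Gc among genes that fell. They are given as the 150 bases before the start, 5′ to 3′ on the gene's strand, with each CG in capitals.
Cited2, plus strand, chr10:17723078-17723227: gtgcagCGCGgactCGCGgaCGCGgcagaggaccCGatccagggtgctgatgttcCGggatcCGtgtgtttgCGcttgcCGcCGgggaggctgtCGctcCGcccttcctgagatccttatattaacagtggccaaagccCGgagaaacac
Hhex, plus strand, chr19:37434691-37434840: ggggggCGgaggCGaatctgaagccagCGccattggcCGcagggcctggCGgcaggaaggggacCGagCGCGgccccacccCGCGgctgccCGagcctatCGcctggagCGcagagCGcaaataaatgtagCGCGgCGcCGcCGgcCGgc
Apoa1, plus strand, chr9:46228480-46228629: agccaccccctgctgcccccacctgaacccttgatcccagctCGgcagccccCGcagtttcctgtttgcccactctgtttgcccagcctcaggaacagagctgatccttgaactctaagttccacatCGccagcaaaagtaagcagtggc
Gc, minus strand, chr5:89457899-89458048: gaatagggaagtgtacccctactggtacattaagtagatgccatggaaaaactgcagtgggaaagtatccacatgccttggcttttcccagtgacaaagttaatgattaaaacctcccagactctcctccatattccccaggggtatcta

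In these stretches Cited2 has 15 CG and Hhex 20, while Apoa1 has 3 and Gc 0. The relation holds on average and not for each gene: Errfi1, which rose by 1.64, has 2 CG in its 300 bases, Nrip1 has 6 and Tat has 5. Among genes that fell, Klf4 and Trib2 have 40 each and Smarca4 has 33.

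Of 5 short motifs searched on both strands, TATAAA (or TTTATA) occurred in 5.86% of promoters of higher genes, 9.13% of those of lower genes, 7.27% of those of all tested genes and 14.2% of all 27025 promoters in the table, and genes holding it had a median of -0.36. GGGCGG (or CCGCCC) occurred in 68.3% of higher and 61.9% of lower genes (65.2% of tested genes, 35.9% of all promoters). TGACG (or CGTCA) occurred in 36.3% of higher and 31% of lower genes (33.1% of tested genes, 21% of all promoters), and CACGTG in 11.3% of higher and 9.94% of lower genes (10.7% of tested genes, 7.24% of all promoters). CCAAT (or ATTGG) occurred in 39.2% of higher, 39% of lower and 39.2% of tested genes, and in 37.9% of all promoters. CG-containing motifs overlap with the CG count, and a match is a description of letters, not a bound site.

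RNA classes took different shares of the fractions. Mitochondrially encoded mRNAs took 14.3% ± 1.88 of counts in the pull-down and 7.94% ± 1.20 in the input (SD, n = 6 each), without overlap, and protein-coding genes of the nucleus 83.3% ± 1.85 in the pull-down and 89.7% ± 1.46 in the input. Exact permutation tests of 6 against 6 libraries, counting both directions, gave p = 0.00217 for both, the smallest that such splits allow, or 0.00595 adjusted over 11 classes. The tests of class shares took no account of diet, and class shares were not recomputed with the close input pairs summed. Genes without a biotype, which are those not matched to the RefSeq table, took 0.530% ± 0.0382 in the pull-down and 0.287% ± 0.0393 in the input (exact permutation p = 0.00217, adjusted 0.00595). Long non-coding RNAs took 0.493% ± 0.0288 in the pull-down and 0.433% ± 0.0307 in the input (exact permutation p = 0.0108, adjusted 0.0198). As shares of the counts left without mitochondrially encoded genes, the pull-down minus input difference of protein-coding genes was -0.372 percentage points, against -6.39 points of all counts. That of long non-coding RNAs was 0.106 points, against 0.0606 points of all counts (adjusted exact permutation p = 0.00433 for both classes without mitochondrial genes).

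Pseudogenes went the other way, with 0.239% ± 0.0305 in the pull-down and 0.299% ± 0.0442 in the input (exact permutation p = 0.0173, adjusted 0.0272). That call was lost when mitochondrially encoded genes were left out of the denominator (adjusted exact permutation p = 0.0924), and when any 1 of 6 of the 12 libraries was left out (adjusted exact permutation p = 0.0544). Small nucleolar RNA genes did not pass (0.0115% ± 0.00244 in the pull-down, 0.0205% ± 0.0314 in the input, exact permutation p = 0.976): low-fat input library 1 alone had 0.0844%, and the other input libraries 0.00460% to 0.0101%. Mitochondrial tRNAs (adjusted exact permutation p = 0.924) and mitochondrial rRNAs (adjusted exact permutation p = 0.223) did not pass either.

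**Figure D4:**
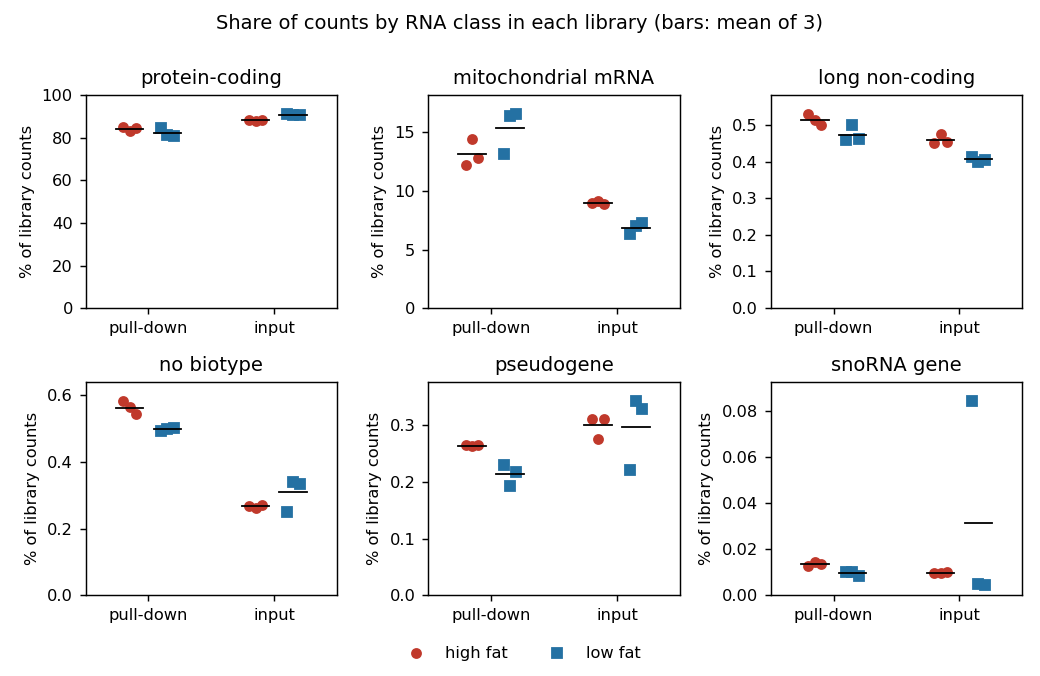
Share of each library's counts in 6 RNA classes, in percent, with pull-down at the left and input at the right, high-fat libraries as circles, low-fat libraries as squares and means of 3 as bars. Mitochondrial mRNAs and genes without a biotype lie higher in every pull-down library than in any input library, and 1 low-fat input library holds 0.0844% small nucleolar RNA.

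Gene by gene, 255 of 342 tested genes without a biotype (74.6%) were higher and 23 lower, with a median of 1.38; whether they code for protein is not given by the table. Annotated long non-coding RNAs had 90 of 233 higher (38.6%, against 37.7% of all genes) and 66 lower (28.3%, against 36.1%), with a median of 0.17. Pseudogenes had 23 of 103 higher and 34 lower (median -0.14). All 7 tested mitochondrial mRNAs except 1 were higher (median 0.63), and both mitochondrial rRNAs were lower. The setting of strand in counting is not given in the sources used here, so reads of a non-coding gene and of an overlapping gene cannot be told apart.

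A list of long non-coding RNAs, many of them nuclear, had 7 of 12 tested members higher (58.3%) and 1 lower (8.33%), with a median of 0.71. Over all genes 37.7% were higher and 36.1% lower. The summed level of the list overlapped, at 1377 to 2356 CPM in the pull-down and 1510 to 2147 CPM in the input. Neat1, the scaffold of paraspeckles, had 138 to 177 CPM in the pull-down and 58.0 to 112 CPM in the input (0.70 ± 0.14, adjusted p = 0.000597). Ftx of the X-inactivation centre changed by 1.61 ± 0.25 (adjusted p = 8.31e-05) and Tug1 by 0.72 ± 0.16 (adjusted p = 0.00134). Malat1, an abundant and long-lived nuclear RNA, had 954 to 1840 CPM in the pull-down and 1148 to 1898 CPM in the input and was not called (-0.16 ± 0.09, adjusted p = 0.135). H19 was at 0 counts in the pull-down and 1 count in all in the input, and was not tested.

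Of 12 tested hosts of small nucleolar RNAs 5 were higher (41.7%) and 3 lower (25%), near the 37.7% and 36.1% over all genes. Their median of 0.09 changed sign with the library left out (-0.20 to 0.30), and was -0.03 under upper-quartile scaling. Snhg12 had 27.7 to 40.6 CPM in the pull-down and 4.62 to 21.0 CPM in the input (1.52 ± 0.25, adjusted p = 0.000126), and Snhg1 and Snhg17 changed by 1.32 ± 0.15 and 1.19 ± 0.17 (adjusted p = 4.20e-06 and 4.52e-05). Gas5, a host whose transcript is degraded through translation, had 117 to 170 CPM in the pull-down and 57.3 to 194 CPM in the input, with overlap (0.22 ± 0.25, adjusted p = 0.436). Snhg8 (-1.13 ± 0.43, adjusted p = 0.0312) and Snhg6 (-0.98 ± 0.38, adjusted p = 0.0318) lost their calls without low-fat input library 1, at -0.35 and -0.37.

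Mir22hg, the host of microRNA 22, had 123.1 to 152 CPM in the pull-down, with a median of 146 CPM, and 32.1 to 57.6 CPM in the input, with a median of 40.7 CPM (1.78 ± 0.13, adjusted p = 1.26e-07). Ino80dos, antisense to a remodeller subunit, had 13.6 to 19.9 CPM in the pull-down and 0 to 4.89 CPM in the input (2.27 ± 0.30, adjusted p = 2.16e-05). The long non-coding RNAs Hectd2os (-2.51 ± 0.30, adjusted p = 8.33e-06) and AW112010, known from immune cells (-2.19 ± 0.20, adjusted p = 9.01e-07), fell without overlap between the fractions.

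Among small structured RNAs, Rny3, a Y RNA bound by the Ro protein, had 9 to 25 counts in a pull-down library and 0 to 6 in an input library (2.51 ± 0.50, adjusted p = 0.000570). Snord118, the U8 RNA of ribosome assembly, had 1.93 to 8.06 CPM in the pull-down and 8.63 to 617 CPM in the input (-4.10 ± 0.99, adjusted p = 0.00229); without low-fat input library 1, which holds the highest value, the change was -1.84. Snord13 gave -3.95 ± 1.00 (adjusted p = 0.00316) and -1.53 without that library. The mitochondrial tRNA mt-Ti had 43.3 to 66.9 CPM in the pull-down and 4.04 to 23.1 CPM in the input (2.32 ± 0.31, adjusted p = 2.35e-05), while mt-Tv, at -2.49 ± 0.81 (adjusted p = 0.0135), was -0.31 and not called without low-fat input library 1.

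Only 4 microRNA genes passed the filter, so mature microRNAs are hardly covered by these libraries. The locus of Mir122, the liver's most abundant microRNA, rose by 3.16 ± 0.28 (adjusted p = 5.87e-07), at 46.7 to 123 CPM in the pull-down and 0.698 to 52.9 CPM in the input, with overlap. Mir1898 (2.42 ± 0.43, adjusted p = 0.000239) rose and Mir703 (-1.35 ± 0.35, adjusted p = 0.00392) fell. A count over such a locus holds any read that covers it, precursor or mature.

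Whether the change from input to pull-down differed between the diets was tested in the same fit, as high-fat minus low-fat. It was called for 293 genes (2.70%), 171 higher (1.57%) and 122 lower (1.12%) on the high-fat diet, but the count rested on single libraries: leaving out 1 library at a time gave between 0 (without low-fat pull-down library 3, with 1869 genes at an unadjusted p under 0.05) and 3024 (without low-fat input library 1, all 293 among them). With both close input pairs summed it was 0, with 1649 genes at an unadjusted p under 0.05, and by DESeq2 it was 741. High-fat and low-fat pull-down libraries of one number had deviations correlated at 0.11 to 0.12, and input libraries at -0.32 to 0.17; with the number as a block within each fraction the count was 0, with 1893 genes at an unadjusted p under 0.05. The genes below are given with that limit.

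Srebf1 and Fasn, genes of fat synthesis, had the larger change on the high-fat diet. Srebf1, the factor that switches on fatty acid synthesis, had 187, 167 and 154 CPM in the high-fat pull-down and 52.5, 44.8 and 53.8 CPM in the high-fat input, against 414, 310 and 284 CPM in the low-fat pull-down and 245, 361 and 353 CPM in the low-fat input. Pull-down minus input was thus 1.75 on the high-fat and 0.07 on the low-fat diet, a difference of 1.68 (adjusted p = 0.0154). Fasn, the synthase itself and a target of Srebf1, had 132, 117 and 108 CPM in the high-fat pull-down and 41.2, 42.5 and 51.4 CPM in the high-fat input, against 648, 457 and 486 CPM in the low-fat pull-down and 463, 948 and 940 CPM in the low-fat input. For Fasn the change was 1.40 on the high-fat and -0.56 on the low-fat diet (difference 1.96, adjusted p = 0.0210). Both genes were lower on the high-fat diet in both fractions, with a narrower gap between diets in the pull-down.

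Gapdh, of glycolysis, had a change of 0.71 on the high-fat and -1.95 on the low-fat diet (difference 2.66, adjusted p = 0.0245); it has many processed copies in the genome, among which the authors' counting may have split reads. Mapk8ip3 (2.04, adjusted p = 0.00693), Tbc1d17 (1.70, adjusted p = 0.0210) and Plxnb2 (1.61, adjusted p = 0.0144) had the next largest differences in that direction.

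In the other direction, Mir122 changed by 1.26 on the high-fat and 5.07 on the low-fat diet (difference -3.81, adjusted p = 0.0154), where the low-fat input held only 3.78, 0.698 and 1.35 CPM. Dnajb9, a chaperone of the endoplasmic reticulum, had 466, 491 and 525 CPM in the high-fat pull-down and 264, 304 and 261 CPM in the high-fat input, against 299, 332 and 348 CPM in the low-fat pull-down and 91.6, 74.0 and 74.4 CPM in the low-fat input (difference -1.19, adjusted p = 0.0152). Cyp26a1, which clears retinoic acid, changed by 0.06 on the high-fat and 1.42 on the low-fat diet (difference -1.36, adjusted p = 0.0245). Ube2q2 (-1.54, adjusted p = 0.0489), Tmed5 (-1.36, adjusted p = 0.0144) and Htatsf1 (-1.25, adjusted p = 0.0208) followed.

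**Figure D5:**
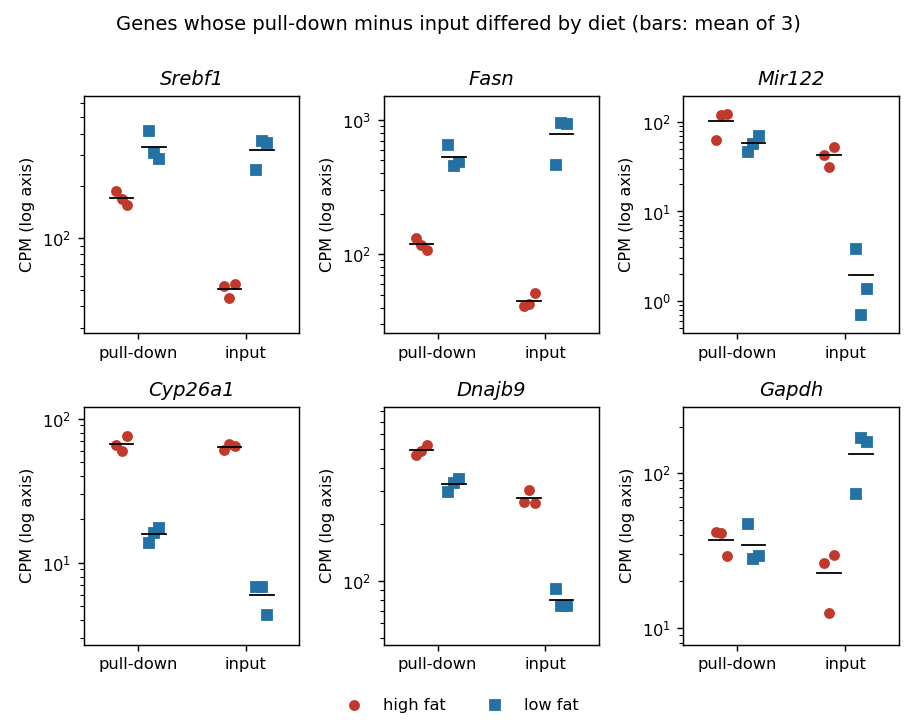
Levels of 6 genes called for the diet difference, in TMM-scaled CPM on a log axis, in the pull-down (left) and the input (right), with high-fat libraries as circles, low-fat libraries as squares and means of 3 as bars. For Srebf1 and Fasn the diets lie closer together in the pull-down than in the input, and for Mir122 the low-fat input lies lowest, at 0.698 to 3.78 CPM.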

How the data were processed

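Liver RNA was sequenced in 12 libraries, and the authors deposited whole-number read counts per gene, 1 file a library. The submitters' processing notes name STAR, HTSeq and mm10; the labels and files state no versions, roles or strand setting. Each file listed 55273 features, of which 38623 matched the RefSeq table, and none was a summary row. Totals were 3033702 to 4942158 counts.

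Genes were filtered (filterByExpr, minimum count 10, minimum total 15), scaled by TMM and tested with edgeR 4.0.16 (R 4.3.3, limma 3.58.1) by quasi-likelihood, with 1 coefficient per fraction and diet, and Benjamini-Hochberg adjustment over all 10865 genes tested. DESeq2 1.42.0 was an alternative. Every adjusted p for a gene is from edgeR unless another tool is named; log2 changes carry an SE derived from the F statistic. Class shares were compared by exact permutation of libraries. The procedure was run on simulated counts in which 10372 genes were left unchanged, unlike the real data, and 8 of these were called. It called 20 of 49 genes raised 1.5-fold, 42 of 50 raised 2-fold, 50 of 50 raised 4-fold and 34 of 48 lowered to 0.5-fold. Its behaviour with as many changed genes as here was not tested. Named genes were the 8 largest changes at or above median level over all genes, over transcription factors and over non-coding genes (at or above the lower quartile), up to 3 per list and direction, 6 per direction for the diet difference, and 10 by name; outside this rule and picked after their values were seen are Elk3, Exosc5, Fgg, Fli1, Ftx, Hp, Ier5, Irf8, Klf2, Klf4, Mef2c, Mir1898, Mir703, Rny3, Sf3b5, Snhg6, Snhg8, Snrpd2, Sox18, Tcf21, Trib2 and the CPEB genes other than Cpeb2. The gene lists and members were chosen with earlier results of these data known. Protein length was not analysed here.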

Additional observations from a re-analysis of the deposited data

Results flagged for a closer look

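Of 78 tests for a library lying far from the other 5 of its fraction, 12 passed the Dixon limit. Chance flags about 1 in 20 where the values are independent and come from a single group. Here each fraction joins both diets and the input holds close pairs, so that rate need not hold. Low-fat input library 1 gave 8 of them: Klf2 at 37.39 CPM, Trf at 15711 CPM, Apoa1 at 7928 CPM, Neat1 at 57.98 CPM, Snord118 at 616.8 CPM, Snord13 at 397.4 CPM, Med13 at 34.45 CPM and the small nucleolar RNA share at 0.08442% of counts. Low-fat pull-down library 2 was high for Klf2 (8.063 CPM) and Snord13 (6.719 CPM). Low-fat input library 3 was high for Myc (14.83 CPM), and high-fat pull-down library 2 was low for Mir22hg (123.1 CPM).

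In 17 printed genes the change from input to pull-down differed between the diets in edgeR's test of that difference, given here as high-fat minus low-fat on the log2 scale. It was positive for Gapdh (2.656), Mapk8ip3 (2.042), Fasn (1.962), Ier5 (1.935), Med16 (1.828), Tbc1d17 (1.697), Srebf1 (1.679), Plxnb2 (1.608), Skiv2l (0.9768) and Atf5 (0.8563). It was negative for Mir122 (-3.805), Ube2q2 (-1.544), Cyp26a1 (-1.359), Tmed5 (-1.355), Htatsf1 (-1.246), Dnajb9 (-1.192) and Malat1 (-1.023). Ier5 changed by 0.40 on the high-fat and -1.53 on the low-fat diet, and Malat1 by -0.67 on the high-fat and 0.35 on the low-fat diet.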

How the results depend on the processing

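Alternative runs were followed for a set of 183 genes, which holds most genes named here and some that are not named. Of these, 178 were called between pull-down and input: 161 kept the call and direction in every run, 17 lost the call in 1 or more and 0 reversed. Dcn, Hbb-bs, Rps29 and Uqcr11 were not in that set. The count of called genes was 7785 to 8596 with 1 library left out, and 7741 with a replicate block within diet. Of the 293 genes with a diet difference (171 higher, 122 lower), the count became 482 without a filter (266 higher, 216 lower), 452 at 10 CPM or more (208 lower), 65 with low-fat input libraries 2 and 3 summed (25 higher, 40 lower) and 741 by DESeq2 (321 higher, 420 lower). With library totals as the scale 18 were lower. It was 0, in both directions, with both close input pairs summed (1649 at an unadjusted p under 0.05), with a replicate block within diet (1841) and with one within fraction (1893); the block within fraction and the summing of both pairs were chosen after seeing the data. With 1 library left out it was 0 to 3024 (higher 0 to 1323, lower 0 to 1701). The replicate numbers share no stated animal, so fractions were not taken as paired. Pull-down and input libraries of one number had deviations correlated at -0.23 to 0.20. These correlations cannot decide whether the fractions are paired, since the input holds close pairs and low-fat input library 1 stands far apart. Between the diets the correlation was over 0.1 for all 3 numbers in the pull-down (0.11 to 0.12) but not in the input (-0.32 to 0.17). Medians by span were -0.25, 0.10, 0.24, 0.40 and 0.55 with library totals as the scale, and -0.68, -0.21 and 0.46 in the shortest, second and longest groups at 10 CPM or more. The pseudogene share differed by -0.0477 points without mitochondrially encoded genes, and by -0.0757 to -0.0507 with 1 library left out. The cause of these shifts was not tested. Counts under about 10 a library limit genes such as Klf4, Tcf21, Fli1, Rny3 and Trib2. They also limit Mir122, with 9, 3 and 5 counts in the low-fat input libraries. Ier5 is limited likewise, with 5, 4 and 11 counts in the low-fat pull-down libraries.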

Other observations

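Picked after their values were seen, 3 genes of the CPEB family, whose proteins bind mRNAs and control their translation, were higher in the pull-down: Cpeb2 changed by 2.40 ± 0.14, Cpeb4 by 2.18 and Cpeb3 by 2.04 on the log2 scale. Among genes of at least median level, Dcn, a matrix proteoglycan of stellate cells and fibroblasts, changed by -3.41 (adjusted p = 7.46e-08). The haemoglobin gene Hbb-bs changed by -2.84 (adjusted p = 0.000115) and the ribosomal protein gene Rps29 by -2.85 (adjusted p = 0.000121). The respiratory chain gene Uqcr11 changed by -2.72 (adjusted p = 7.50e-05). Their changes without low-fat input library 1 are not given here. The erythroid and platelet markers, which include Hbb-bs, summed to 336 to 2210 CPM in the input. Their median went from -2.64 to -1.92 without that library.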
